A study of Homo sapiens with 6 samples.

Results

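The coagulation and fibrinolysis genes are a list of 35 human genes chosen by symbol: the clotting factors, the fibrinogen chains, the inhibitors of clotting, the proteins of fibrinolysis and the enzymes of the vitamin K cycle. They were found among the 23228 genes counted in each library, and 28 of the 35 had enough reads to be tested. RNA was sequenced from Hep3B, an established human hepatocellular carcinoma cell line grown in RPMI medium, in 3 control libraries and 3 libraries labelled PELP1-KD. Control cells carried a non-targeting shRNA, and the others an shRNA against PELP1, a scaffold protein of ribosome assembly and transcription. Both kinds of cell came from lentiviral transduction and puromycin selection, and each is a pool of clones, so the 3 libraries of a group are not stated to be separate transductions and the p values measure the spread between these libraries. The titles name the first PELP1 shRNA and the protocol names both, and the labels also conflict on the RNA kit and on single or paired reads. The comparison addresses which genes differ in level once PELP1 is targeted.

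Most clotting factors are made in hepatocytes and secreted into plasma as inactive precursors. Tissue factor with factor VII starts clotting, the factors of the contact and intrinsic pathways amplify it, and factor X with its cofactor factor V turns prothrombin into thrombin, which cuts fibrinogen into fibrin. Antithrombin, the protein C system and tissue factor pathway inhibitor limit these steps, and plasmin, cut from plasminogen by urokinase or tissue plasminogen activator, dissolves fibrin. Hepatoma lines keep part of this program.

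The libraries held 26758363 to 34456542 reads on genes, and the members took 0.656% to 0.667% of them in the control libraries and 0.622% to 0.641% in those labelled PELP1-KD. PELP1 itself, at chr17:4574679-4607632 of hg19, had 4970 ± 115 normalized reads (SD, n = 3) in control and 4695 ± 238 in the libraries labelled PELP1-KD, a log2 fold change of -0.08 (95% interval -0.17 to 0.00, edgeR adjusted p = 0.101), and with the replicate number as a block this was -0.083 with an adjusted p of 0.0106. Normalized reads are reads scaled to an equal effective library size. The 3 libraries labelled PELP1-KD (4421, 4825 and 4840 normalized reads of PELP1) lay below the 3 of control (4893, 4914 and 5102). The groups likewise did not overlap for 58.8% of all tested genes. Because the RNA of the targeted gene stood near its control level, the group is called by its label throughout. The paper reports less PELP1 protein in Hep3B knockdown cells by Western blot, and protein was not measured in these libraries. Of the hepatocyte markers ALB, AFP, TTR, TF, APOA1, APOB, HNF4A, FOXA2, SERPINA1 and AHSG, 10 of 10 had at least 1 RPKM (reads per kilobase of exon per 1e6 scaled reads). Their summed level was 10965 to 11135 RPKM in control and 9389 to 9514 RPKM under the PELP1-KD label. Of the 10, 7 fell at an adjusted p below 0.05, as did 26.7% of all tested genes. Among the 7 were ALB, which holds the largest part of the sum (4921 to 3219 RPKM), and AHSG, which changed most (581 to 71 RPKM, log2 fold change -3.03, adjusted p = 2.39e-22). AFP (log2 fold change 0.62, adjusted p = 5.87e-13) and HNF4A (0.23, adjusted p = 1.37e-05) rose, and FOXA2 did not pass (-0.06, adjusted p = 0.292). All libraries come from a single cell line, not a tissue. In such bulk RNA, fewer Hep3B cells with a given RNA and less of it per cell cannot be told apart.

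Among the 28 tested members, 19 were lower and 5 higher in the libraries labelled PELP1-KD at an adjusted p below 0.05 (edgeR quasi-likelihood test), and 4 did not pass. The 5 that fell at least 2-fold were F5, CPB2, HGFAC, PLG and F12, and the 1 that rose at least 2-fold was PLAU. Over all 14537 tested genes, 53.6% passed in either direction, 26.7% lower and 26.8% higher, against 24 of 28 members (85.7%). Of all tested genes, 4.79% passed and fell at least 2-fold, and 2.85% passed and rose at least 2-fold. With at least 10 reads required in every library, 423 genes in place of 696 fell at least 2-fold. The groups did not overlap for 25 of the 28 members and for 58.8% of all tested genes. The median log2 fold change was -0.25 for the members and 0.004 for all tested genes. These shares describe the list and were not tested as a set. F5, CPB2 and HGFAC are among the genes the study displayed from these same libraries, so their direction here is not independent evidence.

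**Figure D1:**
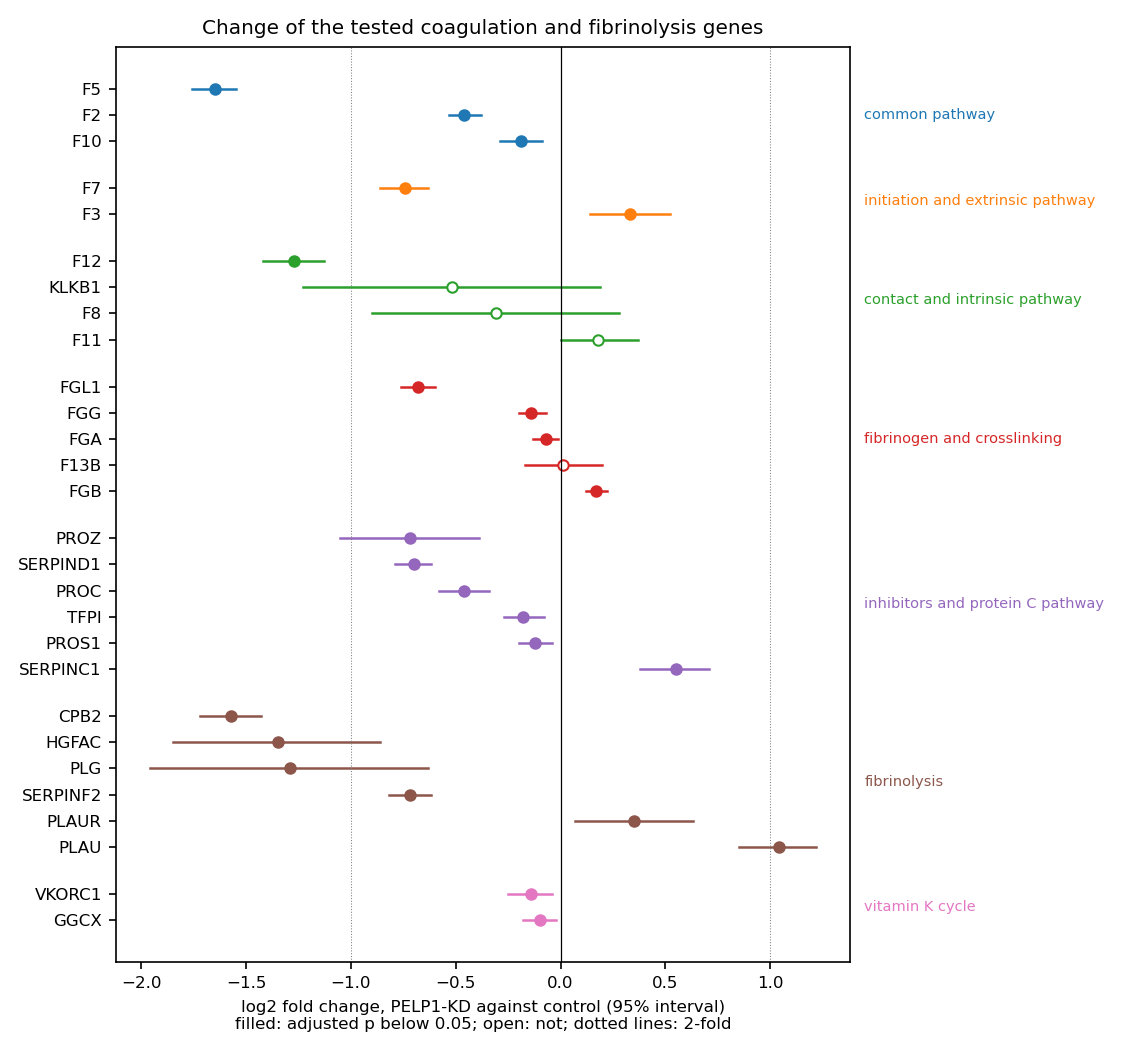
Log2 fold change (libraries labelled PELP1-KD over control, x axis) of the 28 tested members, grouped by role on the y axis, with points for the estimate and bars for the 95% interval of edgeR's quasi-likelihood fit. Of these members 19 lie to the left of 0 and 5 to the right with an adjusted p below 0.05, from -1.65 for F5 to 1.04 for PLAU.

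Members spanned a wide range of levels per length. FGB, FGG and FGA, which encode the β, γ and α chains of fibrinogen, were the highest in control, at 662 ± 4.86, 579 ± 10.5 and 340 ± 2.7 RPKM (SD, n = 3). Next came FGL1, a secreted fibrinogen-like protein of the liver, at 167 ± 5.77 RPKM, SERPINF2, the plasmin inhibitor α2-antiplasmin, at 146 ± 5.55 RPKM, and F2, prothrombin, at 110 ± 1.13 RPKM. Neighbours in this order did not overlap among the 3 control libraries down to F2. At the other end, F9, F13A1 and THBD had 0 reads in all 6 libraries, and a count of 0 allows up to 3 reads, or at most 0.0398, 0.0288 and 0.0276 RPKM. These encode factor IX, the catalytic subunit of factor XIII and thrombomodulin. VWF, LPA, PLAT and PROCR had between 0 and 18 reads in any library and were not tested. Von Willebrand factor, tissue plasminogen activator, thrombomodulin and the protein C receptor PROCR are products of endothelial cells, and the endothelial markers CDH5, KDR, TEK and ERG were at 0 in all libraries, with 1 of the 8 markers (EGFL7) at 1 RPKM or more.

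**Figure D2:**
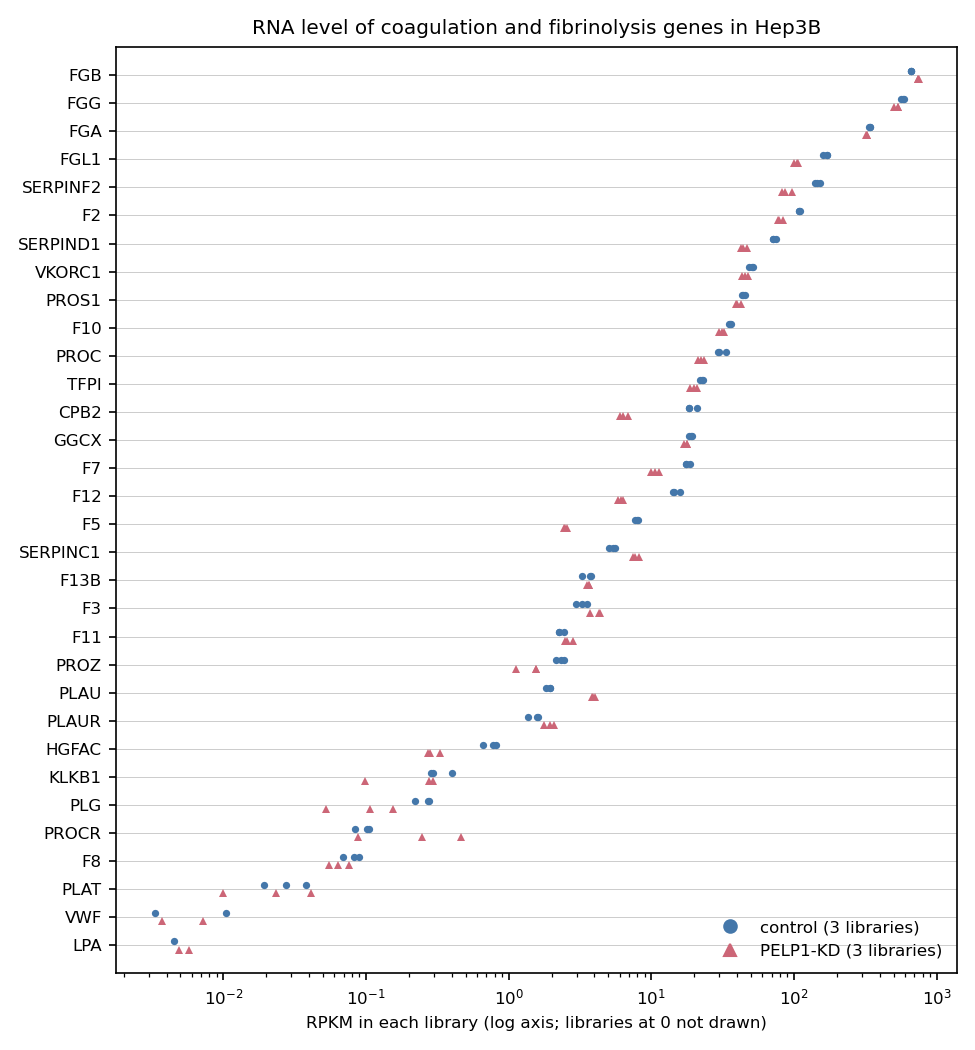
Level of each member with reads in RPKM (log axis) in the 3 control libraries and the 3 libraries labelled PELP1-KD, one point per library with reads. The fibrinogen chains sit at the top, with FGB at 662 RPKM in control, and F8 at 0.0803 RPKM is the lowest of the tested members.

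The start of clotting was represented by F7, which encodes the protease factor VII, and F3, which encodes its cell-surface receptor tissue factor. F7 fell and F3 rose. F7 stood at 1720, 1704 and 1830 normalized reads in control and at 980, 1043 and 1114 under the PELP1-KD label, or 59.7% of control (log2 fold change -0.74, SE 0.05, adjusted p = 5.77e-10). F3 had 266, 247 and 224 normalized reads in control and 327, 322 and 280 in the other group (0.33, SE 0.09, adjusted p = 0.00547). The lowest F3 value of the second group lay above the highest control value, by a margin smaller than the range within either group.

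All 3 genes grouped here under the common pathway fell: F5, the cofactor factor V, F2 and F10, the protease factor X. The fibrinogen chains and factor XIII, also part of that pathway, were grouped apart and are given below. Of those, FGB rose and F13B did not pass. F5, on the minus strand of chromosome 1 at chr1:169481192-169555769, had 2279, 2349 and 2203 normalized reads in control and 722, 707 and 743 under the PELP1-KD label. The lowest control library was thus far above the highest of the other group, and the mean was 3.14-fold higher in control (log2 fold change -1.65, SE 0.05, adjusted p = 6.87e-16), the largest change of any member. F2 fell to 72.9% of control, from 6930 ± 71.2 to 5054 ± 201 normalized reads (-0.46, SE 0.04, adjusted p = 3.72e-09). F10 changed less, from 1717 ± 23.9 to 1504 ± 60.8 (-0.19, SE 0.05, adjusted p = 0.00187). F7 and F10 are head-to-tail neighbours on chromosome 13, with 2.1 kb between them. They fell by different amounts, and the ratio of F10 to F7 in RPKM was 2 ± 0.0717 in control and 2.93 ± 0.0693 under the PELP1-KD label. An exact two-sided permutation test of 3 against 3 libraries gave p = 0.1, the smallest it can give. PROZ, the next gene along, at 9.1 kb from F10, encodes protein Z, the cofactor of a factor X inhibitor, and fell with them (125, 105 and 114 reads in control, and 51, 62 and 73; -0.72, SE 0.16, adjusted p = 0.000715).

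In the contact and intrinsic pathway 1 of the 4 tested genes passed. F12, which encodes factor XII, the protease that starts contact activation, lies at chr5:176829139-176836577 on the minus strand. It had 910, 926 and 1024 normalized reads in control and 411, 377 and 394 under the PELP1-KD label, with a 2.42-fold higher mean in control (-1.27, SE 0.07, adjusted p = 4.53e-12). Its substrates, factor XI and prekallikrein, did not pass. F11, factor XI, had 232, 252 and 232 normalized reads against 293, 264 and 257, so the groups did not overlap, but its log2 fold change of 0.18 (95% interval -0.00 to 0.37) missed the threshold at an adjusted p of 0.0893. KLKB1, plasma prekallikrein, which lies 7.5 kb from F11, had 6 to 31 reads per library (-0.52, interval -1.23 to 0.19, adjusted p = 0.208). F8, the cofactor factor VIII, had 16 to 27 reads (-0.31, interval -0.90 to 0.28, adjusted p = 0.372). At this depth changes of up to the ends of these intervals are not excluded for KLKB1 and F8.

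The fibrinogen chains moved in opposite directions. FGB, FGA and FGG are neighbours on chromosome 4, at chr4:155484132-155493915 (plus strand), chr4:155504280-155511897 (minus) and chr4:155525286-155533902 (minus), with 10.4 and 13.4 kb between them, and their products are assembled in equal numbers into one protein. FGB had 661, 667 and 658 RPKM in control and 751, 744 and 739 under the PELP1-KD label (0.17, SE 0.03, adjusted p = 1.42e-05). FGG had 581, 588 and 568 RPKM against 539, 533 and 505 (-0.14, SE 0.03, adjusted p = 0.000813). FGA had 340, 343 and 337 RPKM against 327, 320 and 325 (-0.07, SE 0.03, adjusted p = 0.0361), a call lost when no genes were filtered out (adjusted p = 0.0676), without any 1 of the control libraries (0.0537 to 0.126) and without PELP1-KD replicate 2 (0.154). These steps were small beside those of F5 or F12 but exceeded the spread of replicates, since no library of one group fell within the range of the other for any of the 3 chains.

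Within each library the ratio of FGB to FGA in RPKM was 1.94, 1.95 and 1.95 in control and 2.3, 2.32 and 2.28 under the PELP1-KD label. The ratio of FGB to FGG was 1.14 ± 0.0134 in control and 1.42 ± 0.0394 in the other group (exact permutation p = 0.1 for both ratios, the smallest possible). A ratio within a library does not depend on its scaling. Together the 3 chains made up 73.3% ± 0.293 of the members' reads in control and 79.9% ± 0.406 under the PELP1-KD label. The other members summed to 55840 ± 286 and 39649 ± 613 normalized reads, and the 3 chains to 153395 ± 1515 and 157501 ± 1886.

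**Figure D3:**
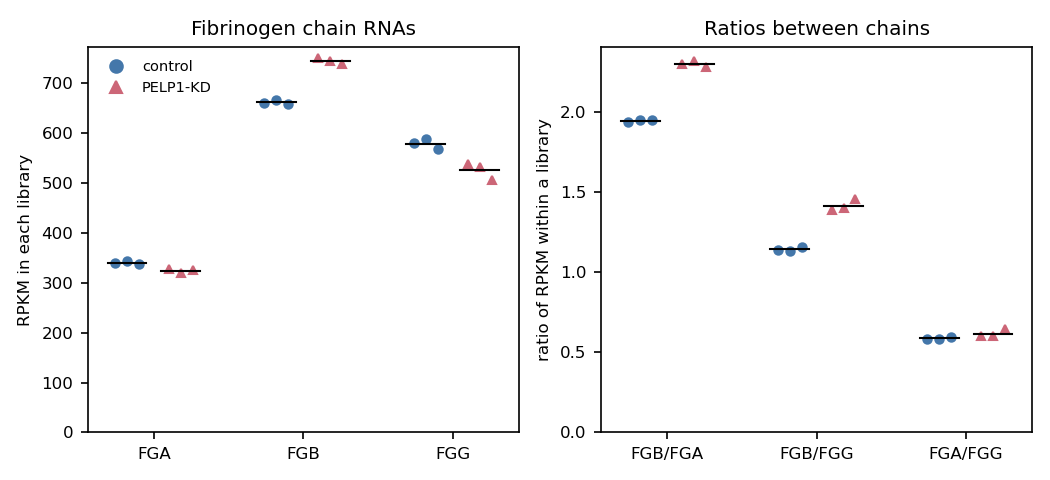
Level of FGA, FGB and FGG in RPKM (left) and their ratios within a library (right), one point per library with the group mean as a line. FGB is higher and FGA and FGG are lower in the 3 libraries labelled PELP1-KD, and the ratio of FGB to FGA goes from 1.95 to 2.3.

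Of the other genes for clot structure, FGL1 fell to 62.5% of control (-0.68, SE 0.04, adjusted p = 1.01e-11); it shares a domain with fibrinogen but does not form clots. F13B, the carrier subunit of factor XIII, had 249 ± 18.7 normalized reads in control and 252 ± 5.45 in the other group (0.01, interval -0.17 to 0.20, adjusted p = 0.905).

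Promoter sequences of 28 of the 35 members were found among RefSeq promoters (GRCh37), each covering 250 bases before and 50 after a start site. Short motifs of factors known for liver genes were searched on both strands: GTTAATNAT for HNF1, CAAAGTCCA for HNF4 and TTGCNNAA for C/EBP. The HNF1 motif was in 4 members (F13B, FGA, HGFAC and PLG) and in 0.799% of all 34796 distinct promoters, the HNF4 motif in 2 members (F10 and PROZ) and in 0.385%, and the C/EBP motif in 6 members (CPB2, FGA, FGB, KLKB1, PLAU and PLAUR) and in 10.5%. TATAAA, searched on the gene's strand, was in 1 member (F13B, where it overlaps the HNF1 motif by 1 base) and in 7.37%. Both members with the HNF4 motif fell, as did FGA, HGFAC and PLG of those with the HNF1 motif, while F13B did not pass. The call of FGA was lost under 5 alternatives. The C/EBP motif stood in members that fell, rose and did not pass. Among all 28 tested members 19 fell, and a link between motif and direction was not tested. A match is a run of letters, not a shown site. The bases before the start are printed for the fibrinogen genes FGB and FGA, which moved in opposite directions, and for PROZ, HGFAC and PLAU, as examples that rose and fell, without bases inside the gene as counted. They run 5′ to 3′ on each gene's strand, with motif matches in capitals: C/EBP in FGB, C/EBP and then HNF1 in FGA, HNF4 in PROZ, HNF1 in HGFAC and C/EBP in PLAU.
FGB, chr4:155483982-155484131, plus strand: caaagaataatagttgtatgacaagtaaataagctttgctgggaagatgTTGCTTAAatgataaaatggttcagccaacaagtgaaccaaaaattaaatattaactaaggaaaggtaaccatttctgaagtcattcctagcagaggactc
FGA, chr4:155511898-155512044, minus strand: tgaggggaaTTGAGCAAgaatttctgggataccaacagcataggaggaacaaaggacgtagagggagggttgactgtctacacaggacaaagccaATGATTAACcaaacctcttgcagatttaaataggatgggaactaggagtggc
PROZ, chr13:113812812-113812961, plus strand: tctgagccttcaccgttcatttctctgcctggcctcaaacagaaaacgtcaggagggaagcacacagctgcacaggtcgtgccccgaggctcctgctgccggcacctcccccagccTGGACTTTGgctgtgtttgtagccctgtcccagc
HGFAC, chr4:3443545-3443694, plus strand: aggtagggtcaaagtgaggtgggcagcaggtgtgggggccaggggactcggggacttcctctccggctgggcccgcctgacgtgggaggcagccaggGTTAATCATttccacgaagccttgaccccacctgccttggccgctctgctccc
PLAU, chr10:75670740-75670861, plus strand: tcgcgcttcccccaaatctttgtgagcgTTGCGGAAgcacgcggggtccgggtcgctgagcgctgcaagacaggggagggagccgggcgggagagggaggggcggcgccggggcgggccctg

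Among the inhibitors of clotting and the protein C pathway, 5 of the 6 tested genes fell and 1 rose. The one that rose was SERPINC1, antithrombin, the main inhibitor of thrombin and activated factor X, with 256, 280 and 270 normalized reads in control and 389, 373 and 412 under the PELP1-KD label, 146% of control (0.55, SE 0.08, adjusted p = 9.22e-06). SERPIND1, heparin cofactor II, which also inhibits thrombin, went the other way, to 61.3% of control (-0.70, SE 0.04, adjusted p = 2.73e-11). The RNAs of prothrombin and antithrombin thus changed in opposite directions, and their levels came closer. The ratio of F2 to SERPINC1 in RPKM was 20.6 ± 1.13 in control and 10.3 ± 0.183 in the other group (exact permutation p = 0.1, the smallest possible). PROC, protein C, the protease that inactivates factors V and VIII, fell to 72.7% of control (-0.46, SE 0.06, adjusted p = 7.56e-07). Its cofactor PROS1, protein S, changed by -0.12 (adjusted p = 0.0129, but 0.0853 without control replicate 2 and 0.0656 without PELP1-KD replicate 2) and TFPI, tissue factor pathway inhibitor, by -0.18 (adjusted p = 0.00289). PROCR, which was below the filter, had 5, 5 and 4 reads in control and 11, 18 and 4 under the PELP1-KD label, so its groups overlapped through replicate 3.

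Of the 6 members that changed at least 2-fold, CPB2, PLG and PLAU act in fibrinolysis. CPB2, at chr13:46627322-46679211 on the minus strand, encodes a carboxypeptidase that protects fibrin from lysis once thrombin activates it. It had 1024, 1152 and 1023 normalized reads in control and 382, 337 and 353 under the PELP1-KD label, 33.5% of control (-1.57, SE 0.07, adjusted p = 2.99e-13). SERPINF2, which neutralises plasmin directly, fell from 10746 ± 409 to 6540 ± 540 normalized reads (-0.72, SE 0.05, adjusted p = 2.66e-10). For both of these antifibrinolytic genes every control library lay above every library of the other group.

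PLG, plasminogen, at chr6:161123225-161175085, was barely expressed, with 32, 38 and 38 reads in control and 20, 12 and 7 under the PELP1-KD label. Its log2 fold change of -1.29 (interval -1.96 to -0.63, adjusted p = 0.00184) rests on few reads. The 3 values of the second group differed among themselves by more than those of control, and without PELP1-KD replicate 3 the change was -0.96 (adjusted p = 0.0116), under 2-fold. PLG lies 35.8 kb from its close relative LPA, which had 0 or 1 read per library, and since reads matching several places were shared out as fractions, the split between such relatives is uncertain. HGFAC, at chr4:3443726-3451213, encodes a protease related to factor XII that activates hepatocyte growth factor and is not itself a step of fibrinolysis. It had 57, 44 and 52 reads in control and 17, 18 and 18 in the other group, 39.2% of control (-1.35, SE 0.24, interval -1.85 to -0.86, adjusted p = 7.31e-05). The interval of HGFAC crosses the 2-fold line.

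PLAU, urokinase, at chr10:75670862-75677258 on the plus strand, was the member that rose most. It had 164, 155 and 166 normalized reads in control and 331, 340 and 326 under the PELP1-KD label, a 2.05-fold rise (1.04, SE 0.09, interval 0.85 to 1.22, adjusted p = 5.92e-09), and its interval crosses the 2-fold line. PLAUR, the urokinase receptor, had 101, 86.3 and 100 normalized reads against 112, 123 and 132 (0.35, SE 0.13, adjusted p = 0.0347), a smaller rise that DESeq2 did not call (adjusted p = 0.0975) and that was not called without control replicate 2 (0.134), PELP1-KD replicate 2 (0.0705) or PELP1-KD replicate 3 (0.122). The ratio of PLAU to PLAUR in RPKM was 1.26 ± 0.0689 in control and 2.04 ± 0.186 in the other group (exact permutation p = 0.1, the smallest possible). PLAT, the other plasminogen activator, had 1 to 4 reads per library.

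**Figure D4:**
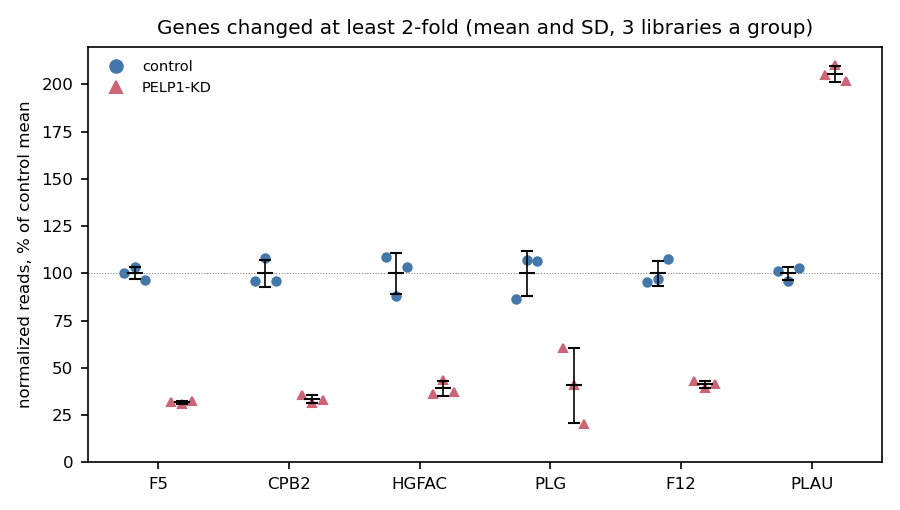
Normalized reads of the 6 called members that changed at least 2-fold, as a percent of the control mean (y axis), one point per library with the mean and SD of each group of 3. Means under the PELP1-KD label run from 31.8% for F5 to 41.3% for F12 among the 5 lower genes, PLAU stands at 205%, and the points of PLG, at 7 to 38 reads, spread most among the lower genes.

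Both enzymes of the vitamin K cycle, which make the clotting factors able to bind calcium, changed little. GGCX, the carboxylase, stood at 93.1% of control (-0.10, adjusted p = 0.0291) and VKORC1, the reductase that warfarin blocks, at 90.5% (-0.14, adjusted p = 0.0213). Neither call held without control replicate 1, control replicate 3 or PELP1-KD replicate 2, where the adjusted p was 0.0945, 0.112 and 0.0702 for GGCX and 0.0637, 0.0918 and 0.119 for VKORC1, and that of GGCX was 0.0613 without PELP1-KD replicate 3. Among the factors they serve, F2, F7, F10, PROC, PROS1 and PROZ all fell, with log2 fold changes from -0.12 for PROS1 to -0.74 for F7.

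The rank of some members shifted. Ranked by mean RPKM, F5 went from place 17 in control to 22 under the PELP1-KD label and CPB2 from 13 to 16, while SERPINC1 went from 18 to 15 and PLAU from 23 to 19.

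A second list held 36 other genes of blood clotting and its control, of which 30 were tested. In it 16 fell, 9 rose and 5 did not pass, where 26.7% of all tested genes fell and 26.8% rose. The median log2 fold change was -0.18, and 4 fell (A2M, APOH, C4BPA and HABP2) and 1 rose (F2R) at least 2-fold. At that threshold 4.79% of all tested genes fell and 2.85% rose. Of the 7 tested protease inhibitors 6 fell and 1 rose, and of the 6 tested cofactors and plasma binding proteins 4 fell and 0 rose. Both tested protease-activated receptors and 3 of the 4 tested genes of plasminogen binding and clearance rose.

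The genes of this list with the smallest p were A2M, α2-macroglobulin, a broad protease trap, which went from 20421, 19831 and 20221 reads in control to 2204, 2037 and 2401 (-3.02, SE 0.04, adjusted p = 2.39e-22), and APOH, β2-glycoprotein I (-1.88, adjusted p = 1.01e-17). KNG1, kininogen, the cofactor of contact activation, fell by 0.98 on the log2 scale (adjusted p = 2.71e-13), beside the fall of its partner F12. SERPING1, the C1 inhibitor, which blocks factor XII and kallikrein, fell by 0.80 (adjusted p = 4.61e-13). In the other direction F2R, the thrombin receptor PAR1, rose 2.11-fold, from 1269, 1229 and 1132 reads to 2455, 2003 and 2381 (1.08, SE 0.05, adjusted p = 4.07e-13). F2RL1, which encodes PAR2, rose by 0.60 (adjusted p = 6.04e-09). LRP1, a clearance receptor for protease and inhibitor complexes, rose by 0.52 (adjusted p = 9.1e-10), and S100A10, part of a plasminogen receptor on the cell surface, by 0.40 (adjusted p = 1.77e-09).

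**Figure D5:**
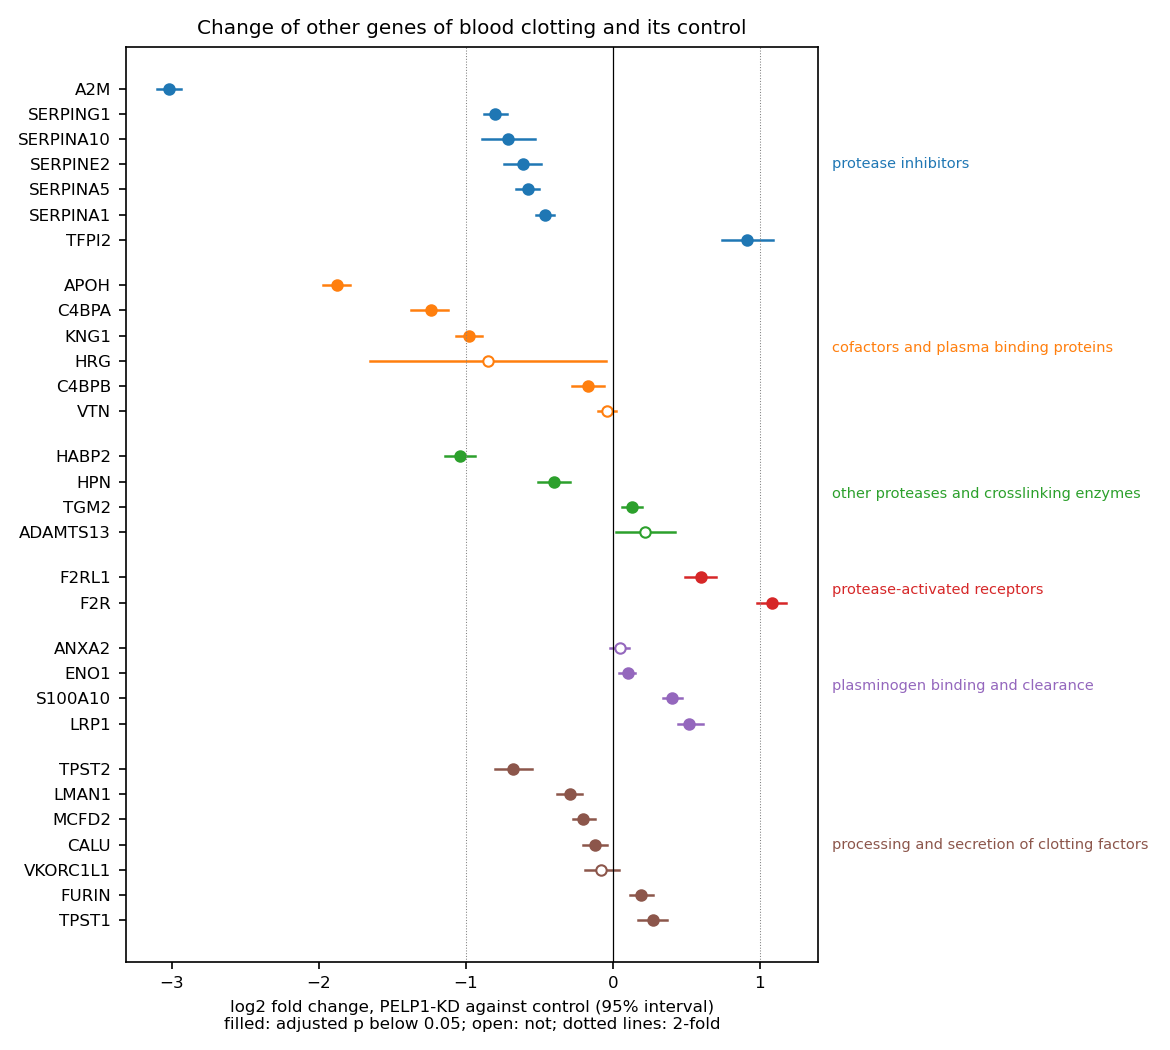
Log2 fold change (libraries labelled PELP1-KD over control) of the 30 tested genes of the second list by role, with 95% intervals from edgeR's fit. A2M lies farthest left at -3.02 and F2R farthest right at 1.08, with 16 genes called lower and 9 higher.

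Markers named for other cell types, read here in a single cell line, moved with the groups as well. The summed level of 5 bile duct markers, of which KRT19, EPCAM and SOX9 had at least 1 RPKM, was 385 to 402 RPKM in control and 628 to 672 RPKM under the PELP1-KD label. KRT19 and EPCAM rose (0.90 and 0.27), as did CFTR at a level under 1 RPKM (1.15), and SOX9 did not pass (-0.04, adjusted p = 0.415). The 6 stellate cell and fibroblast markers summed to 6.08 to 7.37 and 10 to 11 RPKM, with LUM alone at 1 RPKM or more. LUM rose (0.92, adjusted p = 1.4e-08), whereas PDGFRB (-2.13, adjusted p = 9.92e-10) and PDGFRA (-0.96, adjusted p = 8.31e-06) fell. The 6 macrophage and blood cell markers summed to 25.1 to 28.2 and 33.5 to 36 RPKM, with CD163 at 0. CD68 rose (0.48, adjusted p = 1.24e-07) and CD14 fell (-0.98, adjusted p = 3.31e-06). The 8 endothelial markers summed to 29.9 to 31.5 and 24.9 to 26.2 RPKM, nearly all of it EGFL7. EGFL7 fell from 30.2 to 25.1 RPKM (-0.27, adjusted p = 0.000108), and PECAM1 did not pass (-0.09, adjusted p = 0.656). The 7 megakaryocyte markers summed to 0.48 to 0.585 and 0.449 to 0.577 RPKM, with PF4, PPBP and GP9 at 0. The part of these shifts and of those of the hepatocyte markers in the results was not tested.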

How the data were processed

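The authors deposited, for each of the 6 libraries, a table of estimated counts per gene without normalization. The file headers name featureCounts 1.5.0-p1 on exons of hg19, counted by strand at a mapping quality of 2 or more, with reads that matched several places or genes shared out as fractions. The processing notes name HISAT2, whereas the paper's methods name TopHat2 and HTSeq. Between 10.6% and 13.3% of genes per library had a value that was not whole, so close relatives have less certain values; no exon bases of a member overlap those of another gene on its strand.

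Samples were grouped by their labels. Counts were rounded to whole numbers, filtered by edgeR's filterByExpr and tested with glmQLFit (robust) and glmQLFTest of edgeR 4.0.16 (R 4.3.3) with TMM normalization. P values were adjusted by Benjamini-Hochberg over all 14537 tested genes, with thresholds of 0.05 and 2-fold. The median standard error of a log2 fold change was 0.063. SE is the size of the log2 fold change divided by the root of F, and 95% intervals use the degrees of freedom of the fit. Values with ± are means and SD (n = 3). The floor of 3 reads covers counting error only.

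The members and lists were chosen with earlier results of these data known. Named are PELP1, all members, and of the second list the 4 genes with the smallest p in each direction; the other genes of that list past 2-fold were added after their values were seen. PLGRKT of the second list was not analysed here, and 1 further gene was removed from that list after the analysis, for a reason unrelated to its values, and is not reported here. Alternatives were DESeq2's size factors, upper-quartile normalization, DESeq2 1.42.0, no filter, at least 10 reads in every library, the replicate number as a block, and leaving out each library.

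The labels number the replicates 1 to 3 in both groups. Over 6370 genes, the deviations of same-numbered libraries from their group means correlated at 0.336, 0.247 and 0.666. Those of control replicate 2 and PELP1-KD replicate 1 correlated at 0.418, so replicates 1 and 2 are not told apart. The main fit did not pair libraries by number. The numbers were taken as pairs only in the alternative with the replicate number as a block. Replicates differed by more than sampling noise (chi-square per degree of freedom 1.94 to 7.02). Promoters are RefSeq sequences, placed once each on GRCh37 by exact match.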

Additional observations from a re-analysis of the deposited data

How the results depend on the processing

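Over the 12 alternatives, the 28 tested members gave 334 comparisons. Of these, 316 kept their side of the threshold, 18 fell short of it, and 0 reversed direction with a call in either fit. Under every alternative that gave them a value, 23 genes kept their side. Among these, F13B was called in no fit and went from 0.014 to -0.042 without control replicate 3. The 18 were those of FGA (adjusted p = 0.0676 without a filter), PLAUR (0.0975 with DESeq2), and FGA, PROS1, PLAUR, GGCX and VKORC1 with single libraries left out. FGA was not called without control replicate 1, 2 or 3 (adjusted p = 0.121, 0.126 and 0.0537) or PELP1-KD replicate 2 (0.154). The replicate block gave PELP1 -0.083 with an adjusted p of 0.0106, and changed no member's call. Leaving out single libraries gave PELP1 -0.10 to -0.040, with an adjusted p of 0.0179 without PELP1-KD replicate 3. With at least 10 reads in every library, 423 genes fell at least 2-fold, against 696. PROCR, with 4 to 18 reads, was called without a filter (1.40, adjusted p = 0.0334) and without PELP1-KD replicate 3 (1.82, adjusted p = 0.00316), which makes 2 members past 2-fold upward; leaving out single libraries gave 1 to 2. Over those, 15 to 19 members were lower and 4 to 5 higher. PLG and KLKB1 are limited by depth.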
